A study of Mus musculus with 24 samples.

Results

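The genes described here are genes of mouse chromosome 11 whose RNA was raised together in Carma3xpA/+ cells. They were taken from the gene table by position on chromosome 11 and a mean of at least 5 FPKM (fragments per kilobase of transcript, scaled to the library's total) over the 24 libraries, leaving out names that begin with Hox, Col, Hba-, Rpl, Rps, Mrpl, Mrps, Nduf, Atp5, Cox, Psm, Zfp or Hist. This gave 632 of 14737 gene records, of the 1200 records on chromosome 11. The chromosome was chosen by the same Carma3xpA/+ against wild type differences that are described below, so the size of the common shift is given as a description with no test. What was tested is how far each gene lies from that common shift.

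RNA came from mouse embryonic stem cells of strain 129/Sv, wild type or Carma3xpA/+. As the symbol is commonly read, 1 allele of the long noncoding RNA gene Carma has 3 polyadenylation signals inserted, which cut its transcript short. Undifferentiated cells grown on mouse embryonic fibroblasts with serum and LIF (d0) were compared with embryoid bodies from hanging drops, in a cardiac differentiation medium, at d3, d6 and d10, with 3 libraries in each of the 8 groups. Whether the Carma3xpA/+ cells are 1 clone is not given in the sources used here, nor which cultures the stated biological replicates came from. The p-values therefore describe how libraries of a group varied, which may be technical.

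Mouse chromosome 11 shares most of its gene content with human chromosome 17 and is rich in genes used by nearly every cell, among them those for nucleophosmin, p53, the largest subunit of RNA polymerase II and several splicing factors. It also carries genes of the pluripotent state (Tex19.1, Sox15, and Stat3, which relays the LIF signal), of the heart (Myl7, Hand1) and clusters of chemokine genes. A few of its genes are imprinted, which means that they are read from the allele of 1 parent only; Grb10 is read from the maternal allele in most tissues, Commd1 mainly from the maternal allele and Zrsr1 from the paternal one. The files hold RNA levels, and the number of copies of the chromosome was not analysed here.

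Promoters are shown for 3 of the genes, because these genes stand for the 3 kinds of behaviour described below: Grb10 was lower in Carma3xpA/+ on every day, Nup88 kept to the common shift, and Tex19.1 exceeded it. Each sequence runs from 250 bases before to 50 bases after the gene's start in RefSeq (GRCm38.p6), 5′ to 3′ on the gene's strand, and the capitals mark GC boxes, CCAAT boxes and TATA boxes on either strand, spelled out after the sequences.
Grb10, chr11:12037371-12037670, minus strand: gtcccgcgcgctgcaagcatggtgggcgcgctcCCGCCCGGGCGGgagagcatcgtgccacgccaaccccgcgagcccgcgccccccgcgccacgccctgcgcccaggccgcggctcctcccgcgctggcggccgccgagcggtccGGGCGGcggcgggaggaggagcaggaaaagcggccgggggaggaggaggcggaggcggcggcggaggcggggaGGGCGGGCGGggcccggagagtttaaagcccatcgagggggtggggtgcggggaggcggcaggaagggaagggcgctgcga
Nup88, chr11:70969924-70970223, minus strand: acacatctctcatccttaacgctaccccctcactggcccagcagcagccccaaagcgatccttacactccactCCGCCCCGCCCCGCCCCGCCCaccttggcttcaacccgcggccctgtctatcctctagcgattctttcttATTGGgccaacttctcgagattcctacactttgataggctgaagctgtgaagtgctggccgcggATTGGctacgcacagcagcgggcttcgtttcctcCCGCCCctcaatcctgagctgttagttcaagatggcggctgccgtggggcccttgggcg
Tex19.1, chr11:121145893-121146192, plus strand: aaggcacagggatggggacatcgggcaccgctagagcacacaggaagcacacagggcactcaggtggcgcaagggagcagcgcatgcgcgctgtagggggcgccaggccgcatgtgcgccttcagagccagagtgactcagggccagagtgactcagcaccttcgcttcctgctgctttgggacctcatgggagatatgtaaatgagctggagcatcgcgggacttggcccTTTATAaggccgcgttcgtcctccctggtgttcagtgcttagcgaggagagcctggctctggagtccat
The Grb10 promoter held 45 CpG dinucleotides and 5 GC boxes, some of which overlap. RefSeq lists 2 promoters for Grb10, and the one shown starts 1263 bases from the gene's start in the files. The Nup88 promoter held 19 CpG, 5 GC boxes and 2 CCAAT boxes, and the Tex19.1 promoter held 16 CpG and 1 TATA box. Of the 632 genes 521 had a promoter in the RefSeq table; Calcoco2 and Npm1 did not. Their median was 23 CpG, against 7 over all 32851 promoters of the table. Searched on either strand, a TATA box (letters TATAAA) stood in 6.33% of them and in 13.6% of all promoters. A GC box, with the letters GGGCGG, stood in 69.1% of them and in 35.7% of all, a CCAAT box in 41.8% and 37.4%, and an ETS motif, with the letters CCGGAAG, in 18.6% and 8.86%. All 2289 promoters of chromosome 11 lay near the values over all promoters. Their median was 10 CpG, with a TATA box in 12.3%, a GC box in 40.9%, a CCAAT box in 36.4% and an ETS motif in 9.74%. The 632 genes were chosen by RNA level, and the promoters compared with theirs were not. By class, as defined below, the ETS motif was found in 22 of 77 promoters of genes that exceeded the shift (28.6%). It was found in 69 of 393 of those not called (17.6%), 4 of 27 that fell short (14.8%) and 2 of 24 that escaped (8.33%). In genes that exceeded and escaped the shift, a GC box stood in 61.0% and 79.2% and a TATA box in 9.09% and 12.5%. A CCAAT box stood in 37.7% and 41.7%, and an E box (letters CACGTG) in 16.9% and 4.17%. These are counts of letters in windows of 300 bases, not of sites in use.

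One library has to be set apart before the values. In each library the median over the 632 genes of log2(FPKM + 1) was taken relative to the wild type mean of the day, and the same median over 6076 genes of the other chromosomes, chosen by the same rule, was subtracted. This gap lay between -0.02 and 0.01 in the 12 wild type libraries and between 0.27 and 0.37 in 11 Carma3xpA/+ libraries, but at 0.05 in replicate 1 of Carma3xpA/+ at d0. Each wild type library enters the mean it is compared with. Relative to the other wild type libraries of its day, its gap lay between -0.03 and 0.02. The 632 genes held 6.36% of the summed FPKM in that library, 8.31% to 9.12% in the other Carma3xpA/+ libraries and 6.73% to 7.27% in wild type. The same library had low values for long genes: relative to the other 2 libraries of its group, the tertile of the 632 genes with the longest exonic sequence (4838 to 18453 bases) had a median of -0.65 on the log2 scale, and the shortest tertile (541 to 2845 bases) one of -0.12. Such a tilt of short over long genes, 0.53 in that library, lay between -0.35 and 0.34 in the 21 libraries of the other groups, with both ends in Carma3xpA/+ at d10 (replicates 1 and 2). Values without that library are given beside the counts of d0 and of the average, and beside single genes where leaving it out moved a d0 departure printed here by over 1.5 times or changed a printed call.

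The 632 genes were shifted upward together on each day. The median difference between Carma3xpA/+ and wild type in log2(FPKM + 1) was 0.17 at d0, 0.33 at d3, 0.32 at d6 and 0.27 at d10, and as a ratio of mean FPKM the median was 1.16, 1.27, 1.26 and 1.23. Without the d0 library that stood apart, the d0 median was 0.31. At d3 and at d6 584 of the 632 genes (92.4%) were higher in Carma3xpA/+, at d10 553 (87.5%), and at d0 445 (70.4%), or 547 without that library. The quartiles of the differences were 0.20 and 0.45 at d3 and 0.19 and 0.43 at d6.

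None of the other 19 chromosomes was shifted alike. Their medians lay between -0.11 and 0.01 at d0, between -0.12 and -0.01 at d3, between -0.06 and 0.07 at d6 and between -0.06 and 0.02 at d10. Of the 632 genes 375 (59.3%) were higher in Carma3xpA/+ on all 4 days, against 10.3% of the 6076 genes of the other chromosomes; without the d0 library the number on chromosome 11 was 443, and over d3, d6 and d10 alone it was 494. Grb10, Ntn1 and Timp2 were higher on no day. The differences of single genes were only loosely alike between days, with Pearson correlations across the 632 genes between 0.10 (d0 and d6) and 0.40 (d0 and d10). Genes are not independent replicates, and the corresponding range over the 6076 other genes was 0.04 to 0.30.

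**Figure D1:**
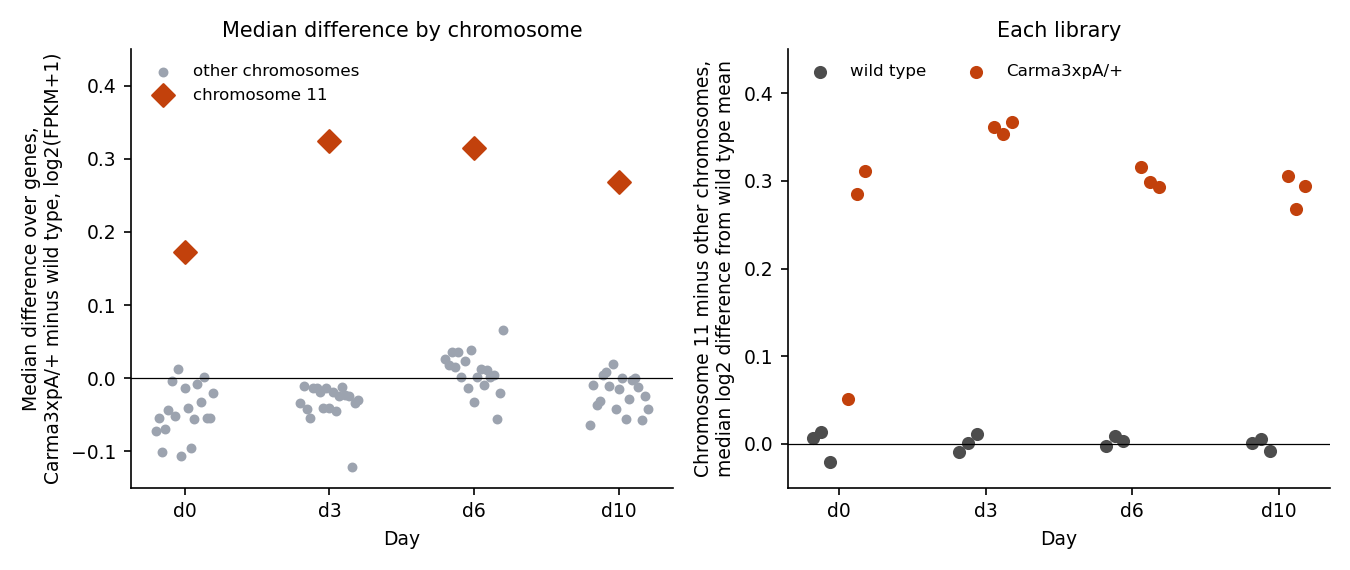
Left, the median difference between Carma3xpA/+ and wild type in log2(FPKM + 1) over the genes of each chromosome, by day: chromosome 11 (diamonds) lies between 0.17 and 0.33, and the other 19 chromosomes (points) between -0.12 and 0.07. Right, for each library, the median over chromosome 11 genes relative to the wild type mean of the day, minus the same over the other chromosomes: 1 Carma3xpA/+ library at d0 lies at 0.05 and the other 11 between 0.27 and 0.37.

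The median difference was above 0 in each of 13 windows of 10 Mb along the chromosome on each day. In the 11 windows with at least 20 of the genes it ranged from 0.07 to 0.24 at d0, from 0.29 to 0.38 at d3, from 0.26 to 0.39 at d6, from 0.16 to 0.32 at d10 and from 0.23 to 0.30 on average, and the other windows, with 10 and 15 genes, had averages of 0.32 and 0.19. By level, the averaged median was 0.22 for the 189 genes with a mean of 5 to 10 FPKM, 0.27 for 289 genes up to 30, 0.35 for 117 genes up to 100 and 0.33 for 37 genes above 100. Genes of the other chromosomes had -0.05, -0.03, 0.02 and 0.05 at the same levels. By exonic length the 3 tertiles hardly differed at d6 (0.30, 0.32 and 0.32 from short to long) but did at d0 (0.37, 0.18 and -0.02, or 0.44, 0.32 and 0.19 without the d0 library) and at d10 (0.37, 0.28 and 0.20). The genes of the other chromosomes had the same slope on these days, at d0 0.16, -0.00 and -0.21 and at d10 0.07, -0.00 and -0.09. Genes just under and just over the threshold had averaged differences of -0.18 (Rhbdf1, mean 4.96 FPKM), 0.16 (Tnk1, 4.98), 0.06 (Nlgn2, 4.99), 0.01 (Aebp1, 5.01), 0.20 (Cep131, 5.01) and 0.02 (Galnt10, 5.01). Among chromosome 11 genes left out by the rule, the 43 of the named families had a median of 0.35, with 37 above 0, and 410 tested genes under 5 FPKM one of 0.13.

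Each gene was then compared with the common shift. Its departure is its own difference minus the median of the 632 genes, and genes of the other chromosomes were centred on their own chromosome in the same way; limma tested the departures of all 13373 genes that reached 1 FPKM in 3 or more libraries, and all 632 genes were among them. Genes counted as called where the adjusted p (Benjamini-Hochberg) was under 0.05. Averaged over the 4 days, 479 of the 632 genes (75.8%) were not called, and 216 lay within 0.25 of the shift on each day. Genes called above the shift numbered 91 (14.4%), where 11.3% of all genes tested were called above their chromosome. Called below were 62 (9.81%), where the background was 10.5%. Both shares are near this background, which includes genes of lower level than the 632. From the lowest to the highest of the 4 levels above, 13.2%, 8.65%, 7.69% and 8.11% of the 632 genes were called below. Genes of the other chromosomes at these levels were called below in 8.20%, 6.72%, 5.13% and 4.28%. Called above were 8.47%, 12.5%, 27.4% and 18.9% of the 632 genes and 8.98%, 12.2%, 20.6% and 21.0% of the others. Of the 62, 30 still had a difference above 0 and fell short of the shift, and 32 had a difference of 0 or less and escaped it.

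Without the d0 library that stood apart, 100 genes exceeded the shift, 76 fell short and 23 escaped it; 70 of the 91 and all 62 earlier calls were among them, with backgrounds of 12.5% above and 15.2% below. Over d3, d6 and d10 alone the numbers were 67, 46 and 24, with backgrounds of 9.84% above and 11% below. Length moved with these classes: the median exonic length was 2533 bases in genes called above, 3812 in those not called and 4497 in those called below, and 2826, 3766 and 3824 over d3, d6 and d10 alone. With departures taken from a trend on length estimated on the other chromosomes, an alternative chosen after seeing the data, 68 genes were called above and 61 below, 64 and 50 of them shared.

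**Figure D2:**
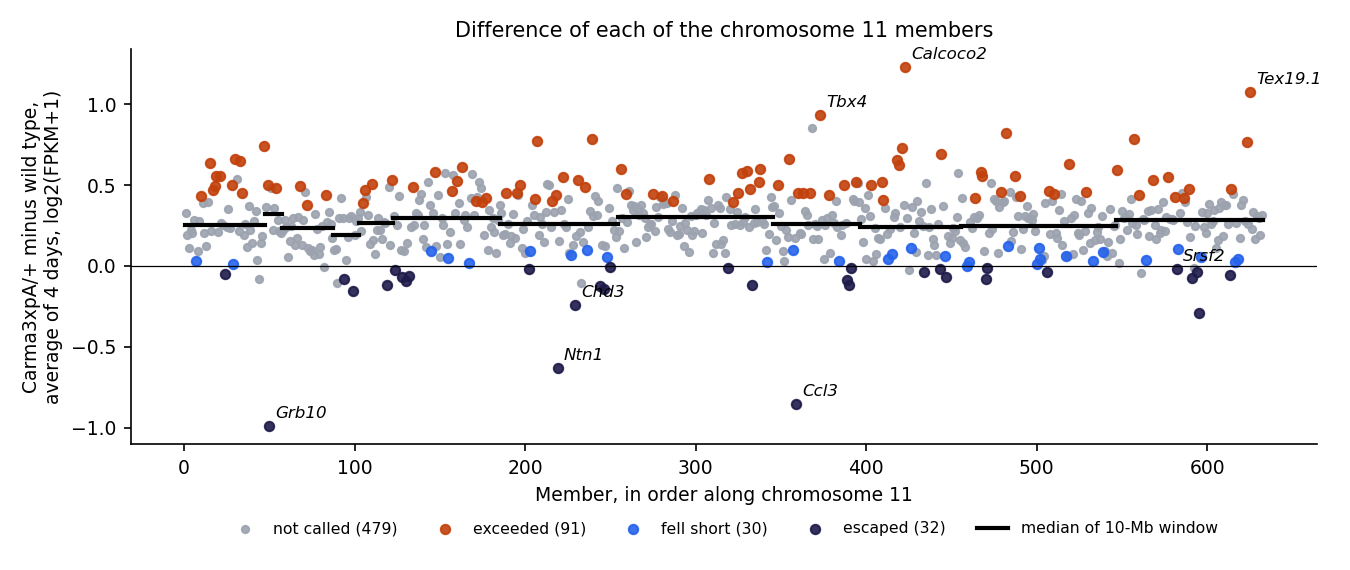
Difference between Carma3xpA/+ and wild type averaged over the 4 days, in log2(FPKM + 1), for each of the 632 genes in their order along chromosome 11. Bars are medians of 10-Mb windows and colours give the class. Grb10, Ccl3 and Ntn1 lie lowest and Calcoco2, Tex19.1 and Tbx4 highest among the called genes. The averages of Ccl3, Ntn1 and Tbx4 take in a group without which the gene misses the 5 FPKM mean, so their classes are descriptions.

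By day, 92 genes were called above the shift and 43 below it at d0 (backgrounds 10.3% and 7.31% of all genes), 19 and 17 at d3 (3.07% and 1.54%), 4 (Tbx4, Ccng1, Gfpt2 and Tex19.1) and 18 at d6 (2.57% and 3.59%) and 25 and 18 at d10 (3.73% and 5.53%). Without replicate 1 of Carma3xpA/+ the d0 numbers were 69 and 52 (backgrounds 7.45% and 7.85%), of which 44 and 37 were among the earlier calls. The d0 count above was 53 or 54 without wild type replicate 1 or 2. The d0 count below was 16 or 22 without these, and 77 or 26 without Carma3xpA/+ replicate 2 or 3. At d3 leaving out any 1 library left 8 to 13 above and 6 to 14 below. At d6 the count below was 11 without Carma3xpA/+ replicate 1, and the d6 call of Gfpt2, an enzyme of the hexosamine pathway, was lost when any 1 of 5 of the 6 libraries was left out. At d10 leaving out Carma3xpA/+ replicate 1 gave 48 above and 33 below, and leaving out any other library gave 13 to 16 above and 5 to 13 below, so the single-day counts rest on few libraries. A limma fit of the d0 groups alone called 0 genes above and 1 below at d0, with 92 and 33 at an unadjusted p under 0.05, so the d0 calls named below rest on the spread shared with the other days.

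The threshold of 5 FPKM, a mean over all libraries, lets in some genes through a group in which they are high. Of the 632 genes 27 would miss it without some 1 group, and 16 of them need 1 genotype of a day but not the other. Of these 16, Tbx4, Ccl3, Ntn1, Lgals3bp and Igtp were called on that day, so their values on it are given below as a description with no test (Igtp is not described further). The averages of Tbx4, Ccl3 and Ntn1, which were called, take in that day and are descriptions too. Ccl3 and Ddc also miss the threshold without the d10 libraries of either genotype, and Erbb2 without those of d6. The d10 departure of Ccl3 and the averages of Ddc and Erbb2 are therefore descriptions as well. The counts by class and by day include these genes.

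Few genes departed on several days. Above the shift on at least 2 days were 20 genes (background 2.79%) and below it 11 (2.06%). Called above on 3 days were Snf8, Zswim7 and Tex19.1. Below the shift, Grb10 was called on all 4 days and the predicted gene Gm12184 on 3. Ccl3 and Ntn1 were also called on 3 days, but these take in d6 and d10 for Ccl3 and d10 for Ntn1. On those days their values are descriptions, as stated above.

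**Figure D3:**
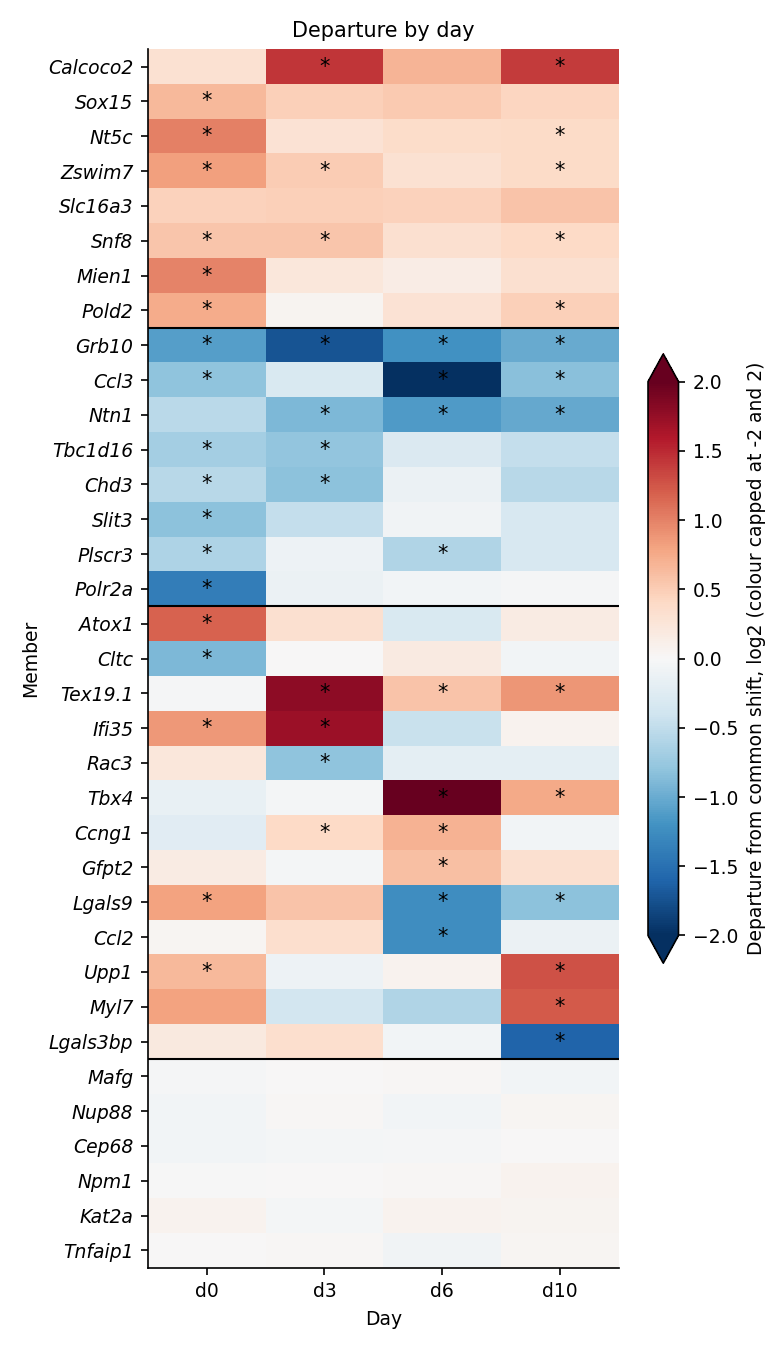
Departure from the common shift by day (log2, colour capped at -2 and 2) for genes named by rule, with an asterisk where limma called it. From the top, the blocks are the 8 largest averaged departures above and the 8 below with 1 sign on all days, further genes with the largest departures on single days, and the 6 genes closest to the shift. The asterisks of Tbx4 at d6, Ccl3 at d6 and d10, and Ntn1 and Lgals3bp at d10 stand for descriptions. Without a group of that day these genes miss the 5 FPKM mean.

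The genes closest to the shift were Mafg, Nup88, Cep68, Npm1, Kat2a and Tnfaip1. Npm1 encodes nucleophosmin, a chaperone of ribosome assembly. In wild type it had 873, 855 and 898 FPKM at d0 and 1211, 1231 and 1167 at d3, against 852, 1006 and 1105 and then 1489, 1467 and 1608 in Carma3xpA/+. At d3 the groups did not overlap, and the ratio of means was 1.26. At d10 wild type had 483, 497 and 516 and Carma3xpA/+ 707, 580 and 612, a ratio of 1.27. The departure of Npm1 was 0.07 or less on each day while its level in wild type fell by 0.79 (log2, adjusted p = 4.35e-07) from d3 to d6. Nup88, a nuclear pore protein, went from 16.9, 15.4 and 16.3 in wild type to 20.4, 21.4 and 20.8 in Carma3xpA/+ at d3, and Kat2a, a histone acetyltransferase, from 24.9, 22.8 and 25.0 to 28.2, 30.9 and 30.1.

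Grb10 went against its chromosome on every day. It encodes an adaptor protein that holds back insulin and IGF receptor signalling and restrains fetal growth (chromosome 11, 11930508 to 12038683, minus strand). Wild type had 28.5, 28.2 and 23.3 FPKM at d0, 23.8, 25.8 and 28.6 at d3, 97.1, 92.4 and 99.5 at d6 and 67.7, 68.2 and 76.9 at d10. Carma3xpA/+ had 7.34, 17.6 and 18.4, then 9.14, 9.94 and 8.78, then 54.0, 49.0 and 50.9, and 46.2, 41.3 and 38.9. The groups did not overlap on any day. The ratio of means was 0.541, 0.356, 0.532 and 0.594. Averaged over days the difference was -0.99 ± 0.10 (SE) and the departure -1.26 (adjusted p = 3.76e-08), and by day the departure was between -1.01 and -1.72. The averaged call and those of d0, d3 and d10 held with each library left out in turn. At the level of transcripts, Grb10-201 carried nearly all of the signal, with means of 46.0 and 16.5 FPKM in wild type and Carma3xpA/+ at d3.

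The nearest of the 632 genes on either side of Grb10 were not lower in Carma3xpA/+ on average. Ddc, which encodes the enzyme that makes dopamine and serotonin, ends 32.4 kb away and had an averaged difference of 0.50 ± 0.05 (departure 0.23). The mean of Ddc was 4.03 FPKM without the Carma3xpA/+ libraries of d10 and 4.71 without the wild type ones, so its average is a description. On the other side the next of the 632 genes is Sec61g, 4462 kb away, a subunit of the protein-conducting channel of the endoplasmic reticulum, with 0.48 ± 0.09 (adjusted p = 0.0925 for the departure). Neither gene of the other imprinted pair, looked up after its values were seen, was called with all libraries: Commd1 had an averaged difference of 0.28 ± 0.05 (adjusted p = 0.868) and Zrsr1, which lies within Commd1 on the opposite strand, 0.45 ± 0.07 (adjusted p = 0.0696), above the median of 0.27. Without the d0 library that stood apart Zrsr1 was called above the shift (departure 0.20, adjusted p = 0.0032). The ratios of means were between 1.16 and 1.35 for Commd1 and between 1.34 and 1.59 for Zrsr1.

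Ntn1 and Slit3, both encoding secreted guidance cues, lay below the shift. Ntn1 (netrin) had 6.69, 6.00 and 6.27 FPKM in wild type at d6 against 3.28, 3.03 and 3.11 in Carma3xpA/+, a ratio of 0.497 with no overlap (departure -1.14, adjusted p = 0.00933). Its averaged difference was -0.63 ± 0.13 (departure -0.90), a description, since the average takes in d10. At d10 the groups overlapped, with 19.8, 18.3 and 10.7 against 14.8, 5.69 and 8.36, and without the wild type libraries of d10 the mean of Ntn1 was 4.82 FPKM. Slit3 had an averaged difference of -0.15 ± 0.13 (adjusted p = 0.0285), a call lost when any 1 of 4 of the 24 libraries was left out, with adjusted p up to 0.0526. Timp2, an inhibitor of matrix metalloproteinases, had like values in both genotypes: wild type had 12.7, 10.4 and 11.01 at d6 and Carma3xpA/+ 10.8, 11.9 and 10.8, and the averaged difference was -0.08 ± 0.08 (departure -0.35, adjusted p = 0.00308). Tbc1d16, which encodes a Rab GTPase activating protein, had -0.29 ± 0.08 (adjusted p = 6.14e-05), and Plscr3, a phospholipid scramblase, -0.14 ± 0.08 (adjusted p = 0.00145).

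Of the chemokine and galectin genes named by rule, Ccl2 and Lgals9 were called below the shift at d6. Ccl3, a chemokine of macrophages, had 4.53, 14.2 and 15.8 FPKM in wild type at d6 and 1.52, 1.73 and 0.934 in Carma3xpA/+, a ratio of 0.121 and a departure of -2.56. Without these wild type libraries its mean over the others was 4.95 FPKM. The groups did not overlap, nor did they at d10, with 20.8, 19.4 and 17.4 against 12.9, 12.2 and 12.8 (departure -0.83). The mean of Ccl3 was 3.85 FPKM without the wild type libraries of d10 and 4.79 without the Carma3xpA/+ ones, so its d10 departure is a description. Ccl2, another chemokine, had 2.99, 6.33 and 6.72 at d6 against 1.37, 3.23 and 2.33 (departure -1.24, adjusted p = 0.00422), and at d10 47.6, 49.7 and 49.6 against 62.0, 47.9 and 54.7. Ccl7, a further chemokine of the same cluster, was called on no day. Lgals9, a galectin, lay above the shift at d0 (ratio 2.20, departure 0.80, adjusted p = 0.0129) and below it at d6 (0.438, departure -1.24, adjusted p = 0.000756) and d10 (0.703, departure -0.82, adjusted p = 0.0163). Lgals3bp, a secreted galectin-binding glycoprotein, had 23.7, 26.1 and 38.0 at d10 against 6.61, 20.3 and 9.14 (departure -1.60), and without these wild type libraries a mean of 3.48 FPKM.

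Markers of macrophages, blood and fibroblasts were lower in Carma3xpA/+ on one or both of these days. Calls of markers, here and below, refer to the departure from the median of the marker's own chromosome. Of 9 macrophage markers, 8 were called lower at d10, the day on which Ccl3, Lgals9 and Lgals3bp but not Ccl2 had lower means in Carma3xpA/+, none was at 0 in all libraries, and their summed level was 185 to 202 FPKM in wild type and 54.3 to 81.6 in Carma3xpA/+. At d6 2 of 9 were called lower, C1qa was at 0 in every library and the sums were 7.42 to 16.2 and 10.1 to 10.6. Of 10 blood markers, 6 were called lower at d6, with sums of 2251 to 4490 and 1508 to 2403, and 1 at d10. Of 10 fibroblast markers, 5 were called lower at d6 (sums of 86.9 to 239 and 82.4 to 107) and 5 at d10 (693 to 878 and 311 to 430). The part of these markers in the chemokine and galectin values was not tested, and in these bulk samples fewer cells of a type and less RNA per cell cannot be told apart. Cd68, a macrophage marker that lies on chromosome 11 itself, had 14.2, 14.6 and 12.6 FPKM in wild type at d10 and 8.68, 13.8 and 12.7 in Carma3xpA/+ (departure -0.51, adjusted p = 0.112). It was called on no day, but its departure decreased from d6 to d10 by a called amount.

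Most genes listed for splicing and RNA processing were not called. Of 29 such genes, 4 escaped the shift (Hnrnph1, Srsf1, Srsf2 and Msi2), beside 32 of all 632 genes (5.06%). In that list 1 fell short (Ddx5), 2 exceeded the shift (Supt4a and Ddx52) and the others were not called. The median averaged difference of the list was 0.26, against 0.27 over all 632 genes. Srsf2, an SR protein of a family known to regulate the splicing of its own transcripts, had 157, 159 and 154 FPKM in wild type and 170, 179 and 161 in Carma3xpA/+ at d3, and 116, 113 and 104 against 119, 99.7 and 115 at d10. Its ratio of means was 0.796 at d0, 1.09 at d3, 1.09 at d6 and 1.00 at d10, and the averaged departure -0.29 ± 0.05 (adjusted p = 0.000842), or -0.23 over d3, d6 and d10 (adjusted p = 0.0082). Srsf1, its relative, had ratios of 0.752, 1.02, 1.09 and 0.951 (departure -0.35, adjusted p = 0.00218), and Hnrnph1 0.847, 0.984, 0.999 and 0.931 (departure -0.36, adjusted p = 0.00496). Srsf1 and Hnrnph1 had their lowest ratio at d0, the day with the library that stood apart. Msi2, an RNA-binding protein of progenitor cells, was not called over d3, d6 and d10 alone (-0.17, adjusted p = 0.224) or against the trend on length (adjusted p = 0.196).

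Chromatin and transcription genes were spread widely. Of 20 listed chromatin genes 4 escaped (Chd3, Cbx2, Mllt6 and Phf12), 1 exceeded the shift (Jmjd6) and the median difference was 0.21. Chd3, a remodelling ATPase of the NuRD complex, had 3.25, 3.57 and 3.43 FPKM in wild type at d3 against 2.09, 2.20 and 2.09 in Carma3xpA/+ (departure -0.82, adjusted p = 0.0116), with no overlap, but 7.15, 6.78 and 8.19 against 8.69, 9.34 and 7.78 at d6. Its averaged difference was -0.24 ± 0.09 (adjusted p = 0.000656). Suz12, a subunit of Polycomb repressive complex, scattered within groups, with 19.6, 19.8 and 41.9 against 62.0, 62.1 and 27.7 at d3, and its averaged difference was 0.36 ± 0.22 (adjusted p = 0.799).

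Polr2a, the largest subunit of RNA polymerase II, was low at d0. It had 92.2, 88.3 and 80.4 FPKM in wild type at d0 and 22.4, 69.7 and 32.2 in Carma3xpA/+ (departure -1.38, adjusted p = 0.000732, and -1.17 without replicate 1). From d3 on it kept to the shift, with ratios of 1.16, 1.21 and 1.22, and its departure over d3, d6 and d10 was -0.07 (adjusted p = 0.459). Its averaged call was lost when departures were taken from the trend on length (adjusted p = 0.0519). The change of its departure from d0 to d3 was 1.26 ± 0.33 (adjusted p = 0.0403), a call lost when any 1 of 10 of the 12 libraries was left out. Of 20 listed genes of the transcription machinery 1 escaped, 2 fell short (Gps2 and Ubtf) and 1 exceeded the shift (Supt4a).

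**Figure D4:**
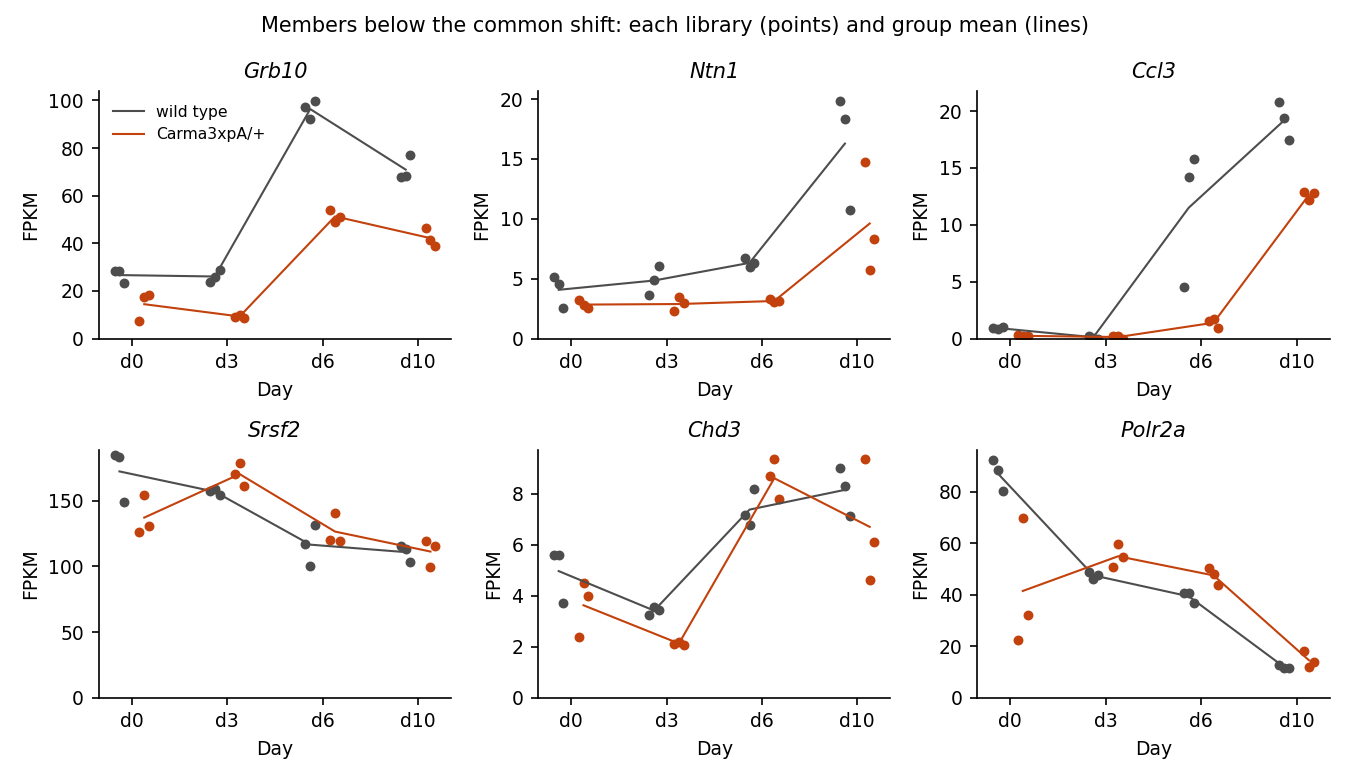
FPKM of 6 genes below the shift in each library (points) with group means (lines), wild type and Carma3xpA/+, by day. Grb10 does not overlap between genotypes on any day, Srsf2 overlaps at d0, d6 and d10, and Polr2a is low in 2 of 3 Carma3xpA/+ libraries at d0.

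Among genes above the shift Tex19.1, Ifi35 and Calcoco2 had the largest departures at d3. Tex19.1, a gene of pluripotent and germ cells that acts against retrotransposons, had 38.9, 43.6 and 33.0 FPKM in wild type and 39.0, 42.5 and 46.4 in Carma3xpA/+ at d0. At d3 it was at 4.89, 5.25 and 4.68 in wild type but at 25.5, 25.7 and 23.0 in Carma3xpA/+, with no overlap, a ratio of 5.00 and a departure of 1.79 ± 0.12 (adjusted p = 7.51e-09). At d10 the values were 2.71, 2.75 and 2.02 against 6.56, 6.18 and 7.37 (departure 0.88, adjusted p = 2.93e-05). In wild type it fell by 2.73 (log2, adjusted p = 5e-13) from d0 to d3. The change of its departure over that step was 1.81 ± 0.16 (adjusted p = 8.53e-06). Its neighbour Tex19.2 is a close copy, so reads may be shared between them.

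Calcoco2, a receptor of selective autophagy, was also called above the shift at d3, and it had the largest departure above it at d10. It had 42.2, 40.1 and 38.8 FPKM in wild type at d0 against 42.7, 70.5 and 60.5, then 4.51, 4.43 and 3.82 against 19.4, 14.9 and 16.3 at d3 (ratio 3.96, departure 1.43, adjusted p = 0.000379) and 1.72, 1.90 and 0.692 against 7.39, 4.24 and 8.87 at d10 (ratio 4.75, departure 1.41, adjusted p = 0.000206). Its averaged difference, 1.23 ± 0.11, was the largest of the 632 genes called above. Sox15, an HMG box factor of embryonic stem cells, had 6.995, 4.93 and 5.31 at d3 against 10.4, 11.1 and 10.3, and its averaged departure was 0.52 (adjusted p = 0.000417). Upp1, a uridine phosphorylase, had 95.1, 95.2 and 89.8 at d0 against 181, 152 and 165 and 12.9, 12.4 and 9.64 at d10 against 32.2, 32.8 and 43.1 (departure 1.28, adjusted p = 2.74e-06), with values close to the shift at d3 and d6. Ifi35, an interferon-induced gene, had 2.24, 1.62 and 1.96 at d3 against 11.7, 11.9 and 9.73 (ratio 5.72, departure 1.72, adjusted p = 0.000133), and overlapped at d6.

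Markers of pluripotent cells were mixed at d3, with a lower summed level in Carma3xpA/+ but a median difference of 0.06. The summed level of 10 such markers on various chromosomes was 1483 to 1529 FPKM in wild type and 1275 to 1362 in Carma3xpA/+ at d3, with 1 called higher and 0 lower by limma. At d10 the sums were 133 to 209 and 195 to 287, with 5 called higher. No marker was at 0 in all libraries of a day, and their part in the values of d3 and d10 was not tested.

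The other genes with the largest averaged departures above the shift were called on between 0 and 3 single days. Snf8, a subunit of the ESCRT-II complex that sorts membrane proteins, had 16.1, 15.1 and 15.7 FPKM in wild type against 30.4, 28.9 and 29.97 at d3, and ratios between 1.58 and 1.90 on the 4 days without overlap (averaged departure 0.46 ± 0.05, adjusted p = 4.75e-06). Zswim7, of a complex that assists homologous recombination, had ratios between 1.57 and 2.06 (departure 0.50, adjusted p = 5.6e-06). Nt5c, a deoxynucleotidase, had 10.96, 11.6 and 11.7 at d0 against 22.2, 29.3 and 30.9 (ratio 2.41) and ratios of 1.55 to 1.62 later (averaged departure 0.52, adjusted p = 2.84e-06). Pold2, a subunit of DNA polymerase delta, had ratios between 1.31 and 1.90 (departure 0.39, adjusted p = 9.51e-05). Mien1 had 29.9, 30.8 and 41.2 at d0 against 103, 63.5 and 69.3 (departure 1.00, or 0.65 without replicate 1), and ratios of 1.39 to 1.52 later (departure 0.42, adjusted p = 0.000261). Its neighbour Erbb2, whose end overlaps that of Mien1 by 0.008 kb, escaped the shift with an averaged difference of -0.02. Slc16a3, a lactate transporter, had ratios between 1.67 and 1.82 (departure 0.49, adjusted p = 0.00898) and was called on no single day, or at d0 when replicate 1 of Carma3xpA/+ was left out (adjusted p = 0.0253). The averaged calls of these genes held without any 1 library and over d3, d6 and d10 alone.

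**Figure D5:**
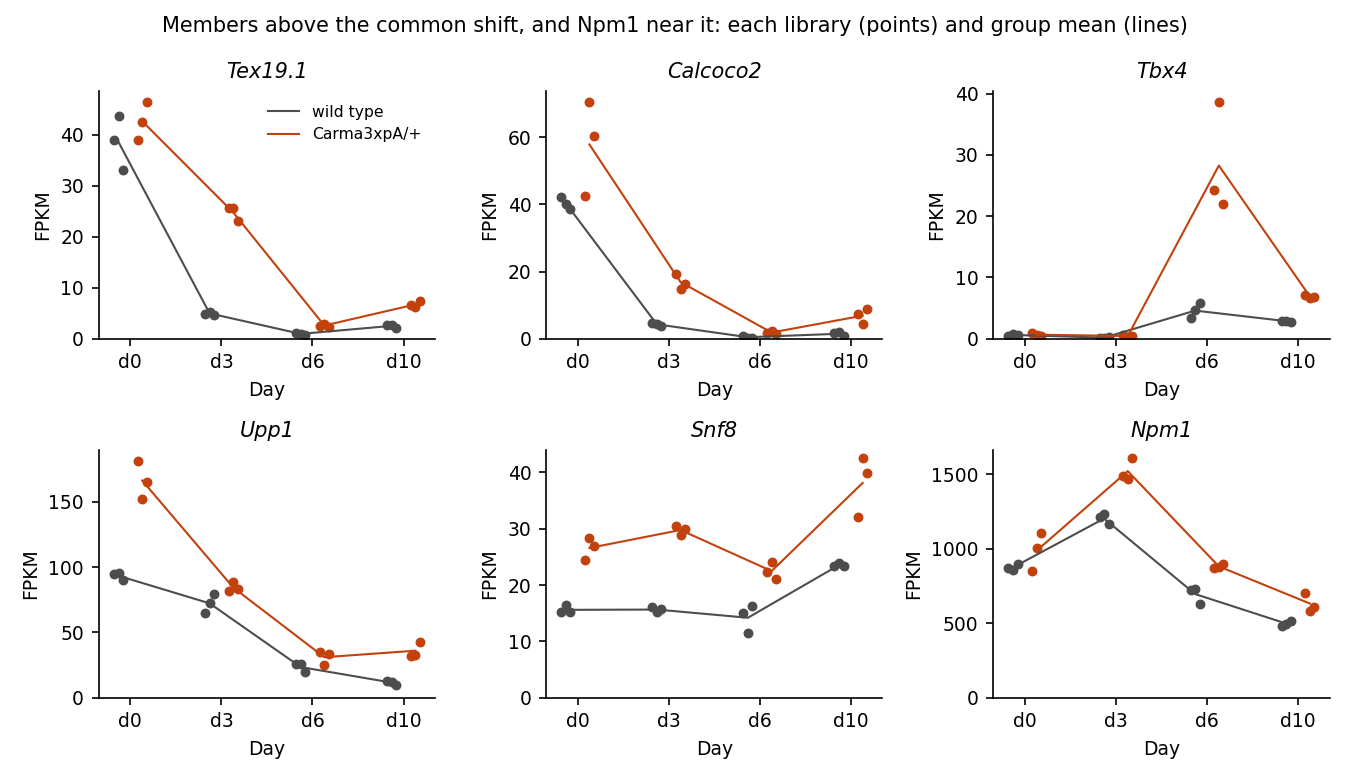
FPKM of 5 genes above the shift and of Npm1, which kept close to it, in each library (points) with group means (lines), by day. Tex19.1 and Calcoco2 fall from d0 to d3 in both genotypes and stay higher in Carma3xpA/+ at d3, Tbx4 peaks at d6 in Carma3xpA/+, and Snf8 does not overlap between genotypes on any day.

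Tbx4 and Myl7, genes of mesoderm and heart, were called above the shift at d10. Tbx4, a T-box factor of the allantois and hindlimb, had 3.32, 4.65 and 5.74 FPKM in wild type at d6 against 24.2, 38.6 and 22.0 in Carma3xpA/+, a ratio of 6.18 with no overlap and a departure of 2.06. It reached the mean of 5 FPKM through these Carma3xpA/+ libraries alone, since its mean over the other libraries was 2.30 FPKM. At d10 it had 2.83, 2.95 and 2.76 against 7.17, 6.70 and 6.74 (departure 0.76, adjusted p = 0.00603). At d0 and d3 it was under 1 FPKM in all libraries. In the transcript table, which rests on the same reads, Tbx4-201 had means of 3.41 and 4.71 at d6, but Tbx4-202 1.04 and 17.8 and Tbx4-203 0.700 and 9.25. Myl7, the atrial myosin light chain, had 433, 492 and 341 at d6 against 321, 322 and 393, and 274, 254 and 204 at d10 against 712, 565 and 797 (ratio 2.83, departure 1.23, adjusted p = 0.0164). The d10 call of Myl7 was lost without wild type replicate 3 (adjusted p = 0.0834) or Carma3xpA/+ replicate 3 (0.0759). Hand1, a factor of heart and extraembryonic mesoderm, had 60.1, 72.8 and 64.8 at d6 against 116, 110 and 92.8, with no overlap and a departure of 0.37 (adjusted p = 0.812), and its d0 values in Carma3xpA/+ were 3.31, 37.0 and 24.9.

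Without the d0 library Hand1 was called at d0 (departure 1.49, adjusted p = 0.00347) and on average (0.49, adjusted p = 0.0177). Cardiomyocyte markers moved with Myl7 at d10: 7 of 10 were called higher relative to their own chromosome, and none was at 0 in all libraries. Their sum was 269 to 429 FPKM in wild type and 611 to 935 in Carma3xpA/+. At d6 3 of 10 were called lower, with sums of 346 to 410 and 268 to 312. Of 10 endoderm markers, 7 were called higher and 1 lower at d6, none at 0 in all libraries, with sums of 163 to 199 and 493 to 649, and at d10, when Tbx4 was also higher, 0 were called higher and 1 lower by limma, with sums of 427 to 786 and 264 to 1188. Their part in these values was not tested. Of 15 listed genes of heart, muscle and vessel 3 exceeded the shift (Tbx4, Myl4 and Nmt1). In the same list 1 fell short (Itga3) and 1 escaped (Timp2), with a median difference of 0.38. The average of Tbx4 takes in the Carma3xpA/+ libraries of d6 that brought it to 5 FPKM, so its place here is a description.

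Further genes departed at d0, the day with the library that stood apart. Atox1, a copper chaperone, had 51.8, 63.4 and 74.4 FPKM in wild type and 265, 118 and 136 in Carma3xpA/+, with no overlap and the highest value in replicate 1 (ratio 2.73, departure 1.18, adjusted p = 0.0021, or 0.69 and 0.0189 without replicate 1). At d6 its groups overlapped, and its averaged call (adjusted p = 0.0396) was lost when any 1 of 17 of the 24 libraries was left out. Cltc, the clathrin heavy chain, had 98.0, 93.9 and 93.0 against 29.9, 93.1 and 66.4, lowest in replicate 1 (departure -0.90, adjusted p = 0.01, or -0.58 and 0.000749 without it), and lay on the shift at d3 with 52.6, 51.2 and 50.3 against 63.4, 68.4 and 64.1. H3f3b, which encodes the histone variant H3.3, had 275, 299 and 229 at d0 against 184, 243 and 262 (departure -0.40, adjusted p = 0.0144) and 180, 189 and 190 at d3 against 282, 288 and 253. Npm1, H3f3b and Rack1 have many processed pseudogenes, so their values are uncertain where reads were shared.

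The other lists by role held to the shift in most members. Of 30 metabolic genes 10 exceeded it, among them Slc16a3, Acadvl of fatty acid oxidation and the glycolytic genes Pgam2 (not called without the d0 library, adjusted p = 0.0775) and Aldoc (not called over d3, d6 and d10 alone, adjusted p = 0.0809), 2 fell short, 1 escaped, and the median difference was 0.33. Of 18 genes of DNA repair and the p53 pathway 5 exceeded it (Pold2, Rad51d, Wrap53, Aatf and Eme1) and 2 fell short, with a median of 0.25. Aatf was not called over d3, d6 and d10 alone (0.08, adjusted p = 0.278), nor Eme1 against the trend on length (adjusted p = 0.113). Trp53, the p53 gene, had 62.5, 59.4 and 58.7 FPKM at d3 in wild type against 67.5, 74.8 and 66.2 and 43.6, 50.8 and 44.9 at d6 against 43.5, 47.0 and 46.4. Its averaged departure was -0.17 ± 0.05 (adjusted p = 0.0153), a call not made over d3, d6 and d10 alone (-0.11, adjusted p = 0.102). Ccng1, a target of p53, had 49.8, 45.5 and 58.0 at d6 against 102, 100 and 107 (departure 0.69, adjusted p = 0.000265).

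Of 22 cell division genes 3 exceeded the shift and 1 fell short, with a median of 0.30; Top2a, the topoisomerase of dividing cells, had a departure of 0.04 (adjusted p = 0.758). Of 13 translation genes 2 exceeded it, with a median of 0.31, among them Nme1, a nucleoside diphosphate kinase (departure 0.23, adjusted p = 0.000629). Of 21 signalling genes 1 exceeded it (Map2k6), 1 fell short (Mapk7) and 1 escaped (Erbb2), with a median of 0.23. Stat3 and Axin2, which answer to LIF and Wnt, were not called on average (adjusted p = 0.123 and 0.431). Of 24 genes of protein folding and turnover 1 exceeded and 1 fell short (median 0.24), and of 25 genes of membrane traffic 4 exceeded and 4 fell short (0.26). The counts of these lists stand beside 91 above, 30 short and 32 escaped of all 632 genes.

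Departures changed between consecutive days in few genes. From d0 to d3 the departure of 7 genes increased and of 21 decreased (backgrounds 1.81% and 1.85%), from d3 to d6 of 2 (Mxra7 and Tbx4) and 10 (0.651% and 2.27%) and from d6 to d10 of 12 and 5 (Ccng1, Cd68, Cldn7, Tbx4 and Wwc1) (1.83% and 2.42%). From d0 to d3 the total of 28 was between 8 and 69 when 1 library was left out, at 46 without Carma3xpA/+ d0 replicate 1, 69 without its replicate 2, and 8 to 17 without wild type d0 replicate 1 or 2, wild type d3 replicate 2 or 3 or any 1 Carma3xpA/+ library of d3. From d6 to d10 the total of 17 was 9 to 11 without wild type d10 replicate 3 or Carma3xpA/+ d6 replicate 1 or 3. Rac3, a small GTPase, had 8.84, 6.97 and 8.17 FPKM at d0 in wild type against 12.4, 9.78 and 10.4, but 8.87, 10.9 and 10.6 at d3 against 6.95, 5.68 and 8.38 (departure at d3 -0.81, adjusted p = 0.00641). The change of its departure, -1.03 (adjusted p = 0.0217), was lost when any 1 of 6 of the 12 libraries was left out.

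The same genes were regulated along differentiation in wild type cells. These contrasts compare wild type libraries alone, although all libraries enter the shared spread and the 5 FPKM mean. From d0 to d3 197 of the 632 genes rose and 163 fell (backgrounds 27.7% and 27.7%), from d3 to d6 191 rose and 182 fell (35.4% and 24.7%), and from d6 to d10 145 rose and 131 fell (24.6% and 23.9%), as called by limma. Grb10 rose by 1.85 (log2, adjusted p = 1.02e-07) from d3 to d6, Myl7 by 5.81 (adjusted p = 3.66e-12) and Tbx4 by 2.25 (adjusted p = 5.86e-10). Ccl3 rose by 3.33, a description, since without the wild type libraries of d6 it misses the 5 FPKM mean.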

How the data were processed

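The submitters' processing notes name StringTie, HISAT2, cutadapt and FastQC, and the build mm10, without versions or settings. The authors deposited 1 value per gene and library in FPKM, per the file headers, with no read counts, so depth is unknown. Per the labels' protocols, libraries were made from polyadenylated RNA with a stranded kit. FPKM is relative to each library's total, so a shift of 1 chromosome lowers the values of the others slightly.

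Values were used as log2(FPKM + 1) with a pseudocount of 1. limma 3.58.1 (R 4.3.3) with a variance trend was fitted to all 8 group means, leaving 16 residual degrees of freedom, with tests two-sided, Benjamini-Hochberg adjusted over 13373 genes within a comparison. Genes of chromosomes with fewer than 20 genes chosen like the 632 were centred on the median of all chromosomes other than 11. Exonic lengths are the union of exons in GENCODE M21, matched by gene ID without version, for all 632 genes. Median-of-ratios and quantile normalization, quality weights and other alternatives are in the closing section. The model was tested on simulated data.

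The genes, lists and markers were chosen with earlier results of these data known. Named genes were the 8 largest averaged departures each way with 1 sign on all days, the 3 largest each way per day with at least 5 FPKM in the higher group, the 6 closest to the shift, the largest and smallest of each list, the 2 largest changes each way per step, genes at the threshold and 9 known genes; others are named to spell out counts or, where said, after their values were seen. Carma, a noncoding gene, was not analysed here.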

Additional observations from a re-analysis of the deposited data

Results flagged for a closer look

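Among the 61 named genes, 20 had a departure from the common shift that differed between consecutive days by limma's interaction term (adjusted p under 0.05), in 26 changes, 11 upward and 15 downward, all on the log2 scale. From d0 to d3 the change was 1.81 for Tex19.1, 1.26 for Polr2a, 1.13 for Calcoco2, 0.64 for Ccng1 and 0.63 for H3f3b upward. Downward over that step it was -1.03 for Rac3, -0.85 for Aldoc, -0.77 for Mien1, -0.75 for Upp1, -0.72 for Nt5c, -0.68 for Pold2 and -0.58 for Mxra7. From d3 to d6 it was 2.09 for Tbx4 and 0.5 for Mxra7 upward, and -2.26 for Ccl3, -2.16 for Ifi35, -1.82 for Lgals9, -1.58 for Ccl2 and -1.22 for Tex19.1 downward. From d6 to d10 it was 1.82 for Myl7, 1.73 for Ccl3, 1.21 for Upp1 and 0.48 for Trp53 upward, and -1.3 for Tbx4, -1.02 for Cldn7 and -0.75 for Ccng1 downward. Of the changes named by rule, those of Tex19.1 from d0 to d3, Tbx4 and Ccl3 over both later steps and Ifi35 from d3 to d6 held without any 1 library; those of Polr2a, Rac3, Aldoc, Mxra7, Myl7 and Cldn7 were each lost without at least 4 of the 12 libraries in turn. The d0 to d3 changes take in the Carma3xpA/+ d0 library that stood apart. The changes of Tbx4 and those of Ccl3 take in a group (Carma3xpA/+ d6, wild type d6) without which the gene misses the 5 FPKM mean, so they are descriptions.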

How the results depend on the processing

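The common shift stayed above 0 in every alternative run. Leaving out 1 library in turn gave 0.0976 to 0.313 at d0, 0.3197 to 0.3347 at d3, 0.2998 to 0.3209 at d6, 0.2557 to 0.3044 at d10 and 0.2497 to 0.3127 on average. With a pseudocount of 0.1 it was 0.3488 at d3 and 0.3357 at d6. With median-of-ratios scaling it was 0.3433 and 0.2975, and 0.3736 at d3 with factors from the other chromosomes. Quantile normalization gave 0.2978 at d3, and all tested genes of chromosome 11 gave 0.2802, 0.263 and 0.2166 at d3, d6 and d10.

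Counts of departing genes depended more on the fit. With sample quality weights 124 genes were called below at d0, 86 above and 90 below at d3, 24 and 38 at d6, 140 and 136 at d10, and 144 and 146 on average. A limma fit of only the groups compared called 0 above and 1 below at d0 (92 and 33 at an unadjusted p under 0.05), 54 and 55 at d3, 10 above at d6, and 12 and 10 at d10. With the d0 library that stood apart left out of the shared spread, a choice made after seeing the data, it was 36 and 30 at d3, 15 and 33 at d6 and 60 and 39 at d10, with 27 changes from d3 to d6 and 38 from d6 to d10. Median-of-ratios scaling gave 65 below at d0, quantile normalization 8 above at d6, and a pseudocount of 0.1 gave 8 changes from d6 to d10. The cause was not tested for any of these. Leaving out 1 library gave 53 to 121 above and 16 to 77 below at d0, 8 to 13 and 6 to 14 at d3, 3 to 6 and 11 to 18 at d6, 13 to 48 and 5 to 33 at d10, and 73 to 107 and 46 to 99 on average. The changes of departure then numbered 8 to 69, 8 to 12 and 9 to 25, and the wild type steps 323 to 335, 337 to 348 and 235 to 256 without 1 wild type library; with the Carma3xpA/+ d0 library left out of the spread these were 425, 426 and 356.

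Of 97 results for named genes 70 were called, and 55 of these held without any 1 library. Reversed were Rack1 under quantile normalization (-0.0943, adjusted p = 0.0271) and H3f3b over d3, d6 and d10 (0.1043, adjusted p = 0.0495), both uncalled in the average of 4 days as reported. With the replicate number as a block, 86 genes were called above and 55 below on average, no count moved by over 1.5 times, and Atox1 (adjusted p = 0.0528), Cldn7 (0.0525) and the d0 to d3 change of Polr2a (0.0512) were lost. Deviations of same-numbered samples correlated by -0.169 to 0.198 and were the best match in 3 of 12 cases, so the numbers gave no pairing. Depth is unknown, since only FPKM were used.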
